A study of Mus musculus with 5 samples.

Results

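Glucose, galactose and fructose leave the gut lumen through a small set of membrane proteins, and the genes described here are 9 of them: the sodium-coupled carriers Slc5a1, Slc5a4a, Slc5a4b and Slc5a9, and the facilitative carriers Slc2a1, Slc2a2, Slc2a5, Slc2a7 and Slc2a9. They were chosen by name, as the sugar transporters that the study considered together with a few relatives. The list of genes uses no measured value, but earlier results of these data were known when it was made. All 9 were among the 22042 genes of the bulk table and the 27998 genes of the droplet table. The study asked which receptors and transporters enteroendocrine cells (EECs), the hormone-releasing sensors of the intestinal epithelium, hold for the contents of the lumen. In the bulk experiment, epithelium of the small intestine from Cck-Cre; R26-LSL-tdTomato mice on a C57Bl/6J background, 6 to 8 weeks old, was sorted into tdTomato+ (CCK+) and tdTomato- (CCK-) cells. The Cre is driven by the gene of cholecystokinin and the label is permanent, so a cell that once made Cck stays CCK+, and CCK- cells are all other sorted cells of the same mice. Mice A, B and F were fasted overnight, while mice C, D and E received the liquid diet Ensure after the fast. The 4 groups were therefore CCK+ fasted, CCK- fasted, CCK+ refed and CCK- refed, with 3 libraries each and 12 in all. Libraries with the same replicate letter were taken as the CCK+ and CCK- cells of 1 mouse. In the droplet experiment, 4 Neurog3-Cre; R26-LSL-tdTomato mice, 6 weeks old, gave the tdTomato+ small intestinal cells of 1 pooled library. Neurog3 is active in EEC progenitors, and their descendants of any type keep the label.

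Slc5a1 encodes SGLT1, which carries glucose and galactose across the brush border together with sodium, driven by the sodium gradient that the sodium pump of the basolateral membrane maintains. Slc2a5 encodes GLUT5, the brush-border fructose carrier, and Slc2a2 encodes GLUT2, which lets glucose, galactose and fructose leave the cell towards the blood. SGLT1 is best known from absorptive enterocytes, and in EECs the sodium that enters with glucose depolarizes the cell and favors hormone release. The proteins of Slc5a4a and Slc5a4b, the mouse SGLT3 pair, belong to a branch of the SGLT family studied as glucose sensors as well as carriers, and Slc5a9 (SGLT4) carries mannose and fructose. Slc2a1 (GLUT1) is the common glucose carrier of dividing and glycolytic cells, Slc2a7 (GLUT7) is an intestinal relative of GLUT5, and Slc2a9 (GLUT9) carries urate.

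On the GRCm38 assembly with the GENCODE vM21 annotation, each gene was placed as a whole gene, introns and untranslated regions included. Slc5a1 lies at chr5:33104219-33162870 on the plus strand, and Slc2a9 on the same chromosome at chr5:38349273-38503143 on the minus strand. Slc5a4b (chr10:76057494-76110961, minus strand) and Slc5a4a (chr10:76147451-76189265, plus strand) stand head to head, 36489 bases apart. Chromosome 4 holds Slc5a9 (chr4:111875375-111902918, minus strand), Slc2a1 (chr4:119108711-119137983, plus strand), Slc2a5 (chr4:150119283-150144169, plus strand) and Slc2a7 (chr4:150148972-150168482, plus strand). The last pair are neighbors on the same strand, 4802 bases apart. Slc2a2 lies at chr3:28697903-28731359 on the plus strand. Since reads of a close copy could be split between genes, runs of 31 bases were compared between transcripts. Of the 2025 such runs of Slc5a4a, 40 also occurred in Slc5a4b, which has 3150. Slc5a4b shared 163 more with genes outside the 9, so 6.44% of its runs were shared, the largest part among the 9 genes. Slc5a4a shared 19 and Slc2a2 shared 34 with genes outside the 9. Slc5a1, Slc5a9, Slc2a1, Slc2a5 and Slc2a7 shared none with any other gene.

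Promoter windows, from 250 bases before to 50 bases after the RefSeq start on GRCm38.p6, were found for 8 of the 9 genes. The windows of the SGLT3 pair are shown because only 1 of the neighbors passed on refeeding, that of Slc5a1 because it is the main sodium-coupled carrier, and that of Slc2a1 because it alone was higher in CCK+ cells. Capitals mark the motifs that were searched on both strands and the longest run shared by the SGLT3 pair. The first motif was the E-box, spelled CACGTG. The GC box was searched as CCGCCC. For the TATA box the letters were TATAAA. The last was GTTAAT, part of the site of HNF1. The windows are at chr10:76147201-76147500 on the plus strand for Slc5a4a, chr10:76110969-76111268 on the minus strand for Slc5a4b, chr5:33103969-33104268 on the plus strand for Slc5a1 and chr4:119108495-119108794 on the plus strand for Slc2a1. Each is written 5′ to 3′ on its gene's strand.
Slc5a4a: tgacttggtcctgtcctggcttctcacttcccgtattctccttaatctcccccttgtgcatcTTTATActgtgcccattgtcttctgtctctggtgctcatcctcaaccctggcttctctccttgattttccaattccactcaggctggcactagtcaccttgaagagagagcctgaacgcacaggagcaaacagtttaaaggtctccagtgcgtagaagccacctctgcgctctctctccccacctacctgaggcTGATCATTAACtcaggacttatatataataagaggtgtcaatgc
Slc5a4b: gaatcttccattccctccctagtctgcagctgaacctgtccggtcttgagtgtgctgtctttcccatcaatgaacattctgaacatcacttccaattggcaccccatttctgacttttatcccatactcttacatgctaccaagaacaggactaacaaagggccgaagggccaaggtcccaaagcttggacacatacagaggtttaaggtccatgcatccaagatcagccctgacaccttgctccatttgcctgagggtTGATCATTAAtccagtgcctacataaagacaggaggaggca
Slc5a1: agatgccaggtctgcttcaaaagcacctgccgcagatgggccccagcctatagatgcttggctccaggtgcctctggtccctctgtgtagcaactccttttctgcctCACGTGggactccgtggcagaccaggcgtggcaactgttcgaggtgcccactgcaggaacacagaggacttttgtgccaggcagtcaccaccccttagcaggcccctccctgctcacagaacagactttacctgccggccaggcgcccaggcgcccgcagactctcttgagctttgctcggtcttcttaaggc
Slc2a1: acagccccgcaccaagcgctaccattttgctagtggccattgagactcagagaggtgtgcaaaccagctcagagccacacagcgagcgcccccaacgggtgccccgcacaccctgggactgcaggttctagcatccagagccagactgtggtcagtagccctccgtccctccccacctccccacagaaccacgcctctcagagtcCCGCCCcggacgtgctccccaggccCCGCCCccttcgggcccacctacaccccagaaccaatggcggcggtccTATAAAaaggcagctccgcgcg
The longest run that the SGLT3 pair shared was TGATCATTAA, 6 bases from the start of Slc5a4a and 9 bases from that of Slc5a4b, and it occurred in 12 of 32851 promoter windows (0.0365%). In Slc5a4a the HNF1 letters, present in 7.1% of windows and read here on the reverse strand, overlaps this run. The E-box of Slc5a1 was found in 7.15% of windows, the GC box of Slc2a1 in 35.7% and the TATA box letters of Slc2a1 and Slc5a4a in 13.6%. Slc2a5 also held the GC box, 3 times. These matches describe letters and not bound sites.

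The bulk libraries summed to between 7061155 and 11371114 normalized counts, with 16656 to 18855 genes above 0. Cck itself was at 14837.3 to 32592.4 in CCK+ and 27.64 to 86.02 in CCK- libraries, as the cell labels say, and all 10 EEC markers were higher in CCK+ cells. Enterocyte genes remained present in CCK+ libraries. The summed level of the fatty acid and retinol carriers Fabp1 and Rbp2, the lipoprotein loader Mttp, alkaline phosphatase Alpi and Reg1 was 34836.1 to 82058.4 in CCK+ and 93241.6 to 122736.2 in CCK- libraries, and that of 8 further enterocyte genes was 182029.5 to 421388.6 and 438622.4 to 596490.1. Immune markers moved the other way: 6 of 7 were higher in CCK+ cells, with a summed level of 6108.4 to 11138.6 against 2844.3 to 9368.3. The libraries are sums over sorted cells, so fewer cells of a type and less RNA per cell cannot be told apart. Of the other marker lists, 3 of 5 crypt, 1 of 4 stromal and 1 of 3 measured endothelial genes were higher in CCK+ cells, 2 of 6 goblet genes and 5 of the 8 further enterocyte genes were lower, and 0 of 5 Paneth genes passed.

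The first comparison asked which sugar transporters differ between CCK+ cells and the rest of the epithelium. Of the 9 genes, 7 were lower in CCK+ cells, 1 (Slc2a1) was higher, and Slc2a5 did not pass the test. The test was limma on log2(normalized count + 1) with a Benjamini-Hochberg adjusted p under 0.05, over both feeding states. Across all genes 33.7% passed it, 19.6% as higher and 14.1% as lower in CCK+ cells. Higher calls were 58.2% of the calls, and 84.1% when each library was scaled to the same sum. The median log2 difference of the 9 genes was -0.91, against 0.09 over all genes tested, and all 5 enterocyte genes named above were lower with a median of -1.01. Because these genes moved together with the transporters, each level was also read per 1000 normalized counts of the 13 enterocyte genes of the same library. The part of enterocyte RNA in the fold changes was not tested in the bulk data beyond these ratios.

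**Figure D1:**
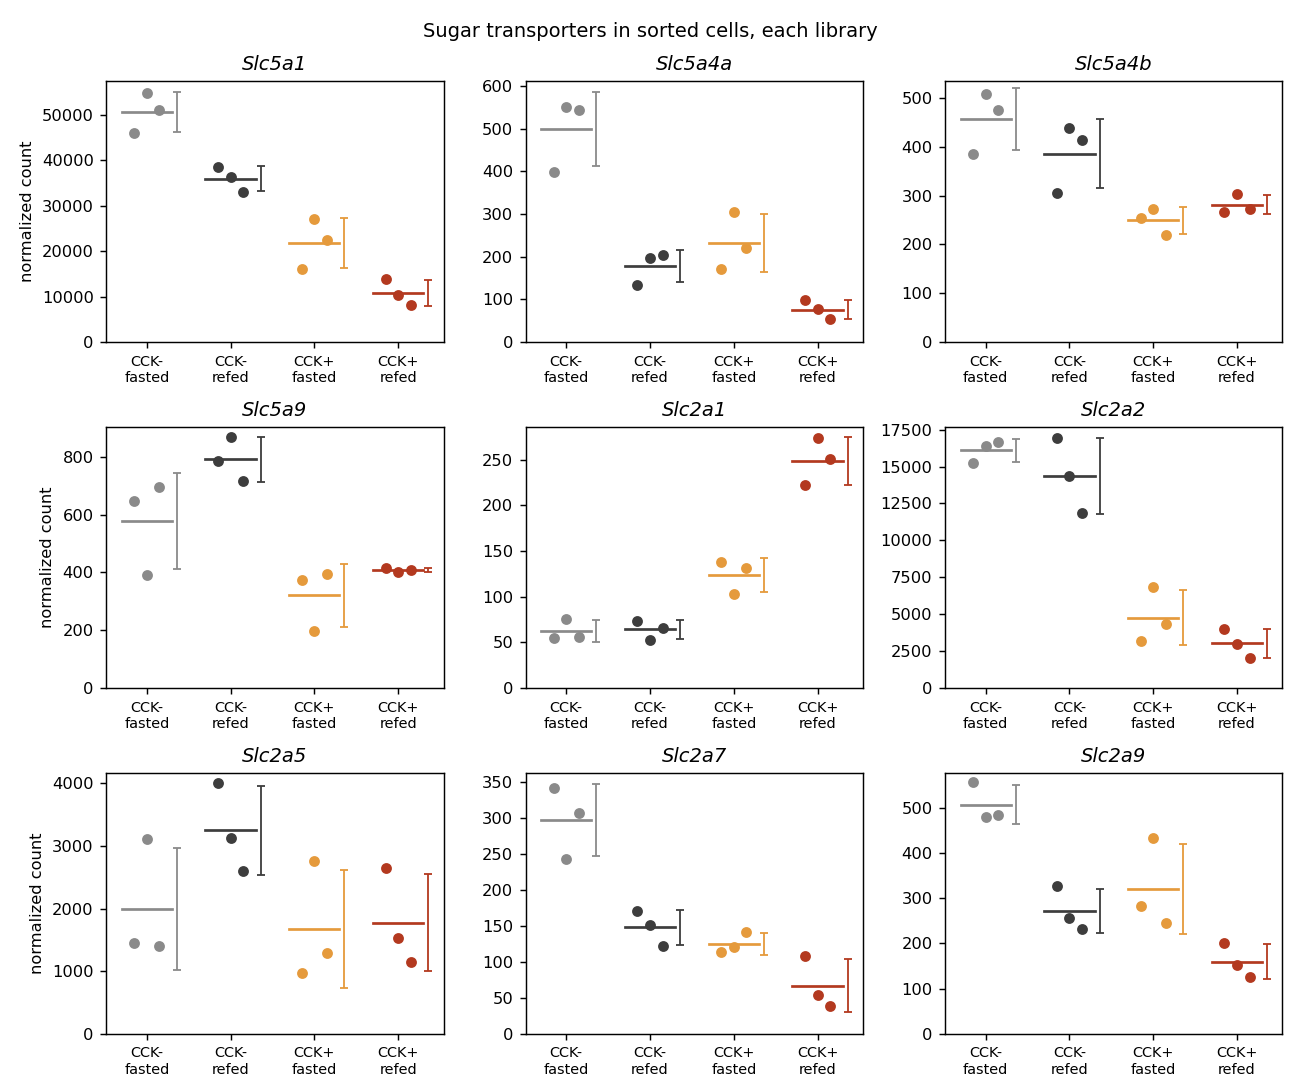
Normalized counts of the 9 sugar transporters in the 12 bulk libraries, 1 panel per gene with its own linear axis from 0. Points are libraries, grouped by cell type and feeding state, horizontal lines are group means, and the whiskers beside them span 1 SD either way (n = 3). Slc2a1 is the gene whose CCK+ points lie above all CCK- points, while Slc2a5 overlaps between CCK+ and CCK- libraries.

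Slc5a1, the sodium-glucose cotransporter, had the levels 45972.5, 54818 and 50945.7 normalized counts in CCK- cells of fasted mice A, B and F and 38569.5, 36229.6 and 33060.2 in CCK- cells of refed mice C, D and E. In CCK+ cells of the same mice it was at 16148.8, 27120.3 and 22354.9 when fasted and 13907.8, 10362.7 and 8094.9 when refed. Every CCK+ library thus lay below every CCK- library, and within a mouse the CCK+ level was 24.5 to 49.5% of the CCK- level. The log2 difference was -1.50 ± 0.17 (SE, n = 3 libraries per group), 2.83-fold lower (limma, adjusted p = 1.04e-05). Per 1000 counts of enterocyte genes Slc5a1 was still lower in CCK+ cells of all 6 mice, at 0.601 to 0.704 of the CCK- value.

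The SGLT3 pair and SGLT4 showed smaller differences. Slc5a4a was at 398.2, 551.5 and 544.5 in CCK- and 170.3, 304.7 and 220 in CCK+ cells of fasted mice, and at 134.3, 196.4 and 202.8 in CCK- and 98.02, 76.95 and 53.49 in CCK+ cells of refed mice. The groups did not overlap within either state. It was lower in CCK+ cells by a log2 difference of -1.18 ± 0.19 (adjusted p = 0.000236).

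Its neighbor Slc5a4b was at 386, 507.8 and 475.3 in CCK- and 254.8, 273.2 and 219.1 in CCK+ cells of fasted mice. In refed mice the levels were 305.2, 438.2 and 413 in CCK- and 266.8, 303 and 272.9 in CCK+ cells, so that the groups nearly touched. Over both states it was lower in CCK+ cells by -0.65 ± 0.13 on the log2 scale (adjusted p = 0.00101). In refed mice alone it did not pass (log2 difference -0.44 ± 0.18, adjusted p = 0.0908). Slc5a9 was at 648.7, 390.1 and 696.7 in CCK- and 373.3, 195.6 and 394.6 in CCK+ cells of fasted mice, and at 787.9, 870.9 and 716.9 in CCK- and 415.2, 401.6 and 406.9 in CCK+ cells of refed mice. Fasted mouse B was lowest in both cell types, and the fasted groups overlapped in part for that reason. Slc5a9 was lower by -0.91 ± 0.18 (adjusted p = 0.00127). When each library was scaled to the same sum of normalized counts, which moved the median of all genes from 0.09 to 0.35, Slc5a4b (-0.26, adjusted p = 0.178) and Slc5a9 (-0.51, adjusted p = 0.0772) no longer passed. Over all alternatives their adjusted p ranged from 0.000563 to 0.178 and from 5.96e-05 to 0.0772. Per 1000 enterocyte counts, Slc5a4b was higher in CCK+ cells of 4 of 6 mice, Slc5a9 in 3 and Slc5a4a in 1.

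Among the facilitative carriers, Slc2a2 had the largest difference of the 9 genes. GLUT2 transcripts stood at 15233.1, 16416.2 and 16675.3 in CCK- cells of fasted mice and 16944.8, 14328.5 and 11838.1 in those of refed mice. CCK+ cells held 3177.6, 6833.4 and 4299 when fasted and 4022.3, 3002.3 and 2010.1 when refed. All CCK+ libraries were below all CCK- libraries, at 17 to 41.6% of the CCK- level of the same mouse, and the log2 difference was -2.06 ± 0.20 (4.17-fold lower, adjusted p = 1.9e-06). Per 1000 enterocyte counts it was lower in all 6 mice as well, at 0.364 to 0.592 of the CCK- value.

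Slc2a1, the glucose carrier of glycolytic cells, went the other way. It was at 54.31, 75.95 and 56.09 in CCK- and 138, 102.8 and 131.1 in CCK+ cells of fasted mice, and at 73.36, 52.88 and 66.05 in CCK- and 222.1, 274 and 250.2 in CCK+ cells of refed mice. The CCK+ level was the higher one in 6 of 6 mice, by 1.35 to 5.18 times. The log2 difference was 1.47 ± 0.16 (2.77-fold higher, adjusted p = 7.52e-06), and per 1000 enterocyte counts the ratio was 1.92 to 12.5. Of the 7 immune markers, 6 were higher in the same CCK+ libraries (above), and their part in the level of Slc2a1 was not tested.

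Slc2a5, the fructose carrier, differed less between cell types than between mice. It was at 1445.1, 3110 and 1405.5 in CCK- and 976.1, 2754.6 and 1288.9 in CCK+ cells of fasted mice A, B and F, and at 4007.6, 3133.9 and 2603.5 in CCK- and 2648.7, 1533.2 and 1144.6 in CCK+ cells of refed mice C, D and E. Fasted mouse B was high in both cell types, and the groups overlapped when fasted and when refed. The log2 difference was -0.61 ± 0.28 (95% interval -1.21 to -0.02, adjusted p = 0.109). Within a mouse, however, the CCK+ level was lower in 6 of 6, at 0.44 to 0.917 of the CCK- level, and with the mouse as a replicate block the same difference passed (adjusted p = 0.00133). It also passed without CCK+ fasted mouse B (-0.83, adjusted p = 0.0368), and over all alternatives the adjusted p ranged from 0.00133 to 0.531. Per 1000 enterocyte counts, by contrast, Slc2a5 was higher in CCK+ cells of 6 of 6 mice, by 1.08 to 1.3 times.

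Slc2a7 was at 340.9, 243.2 and 307.1 in CCK- and 113.1, 119.8 and 141.6 in CCK+ cells of fasted mice, and at 170.3, 150.9 and 122.3 in CCK- and 107.8, 53.96 and 38.21 in CCK+ cells of refed mice. No CCK+ value reached a CCK- value of the same state. The log2 difference was -1.25 ± 0.22 (adjusted p = 0.000426). Slc2a9 was at 556.1, 480.1 and 484.6 in CCK- and 283.5, 433 and 244.9 in CCK+ cells of fasted mice, and at 326.3, 256.8 and 232.5 in CCK- and 200.9, 152.3 and 124.6 in CCK+ cells of refed mice. Its groups did not overlap within a state either. The urate carrier was lower by -0.74 ± 0.17 (adjusted p = 0.00274), which did not pass with equal library sums (-0.34, adjusted p = 0.093; 0.00102 to 0.093 over all alternatives). Per 1000 enterocyte counts it was higher in CCK+ cells of 4 of 6 mice, and Slc2a7 in 1.

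Taken by feeding state, 7 of the 9 genes passed in fasted mice, where 18.2% of all genes did, and 7 passed in refed mice, where 25.9% did. Slc2a9 (adjusted p = 0.0512) and Slc2a5 did not pass in fasted mice, and Slc5a4b and Slc2a5 (adjusted p = 0.0984) did not in refed mice. With the mouse as a block, Slc2a9 passed in fasted mice (adjusted p = 0.0284) and Slc2a5 in refed mice (adjusted p = 0.00129). Groups without overlap were found for 7 of the 9 genes in fasted mice, where 28.6% of all genes and 40.3% of those with a mean of at least 10 had none, and for 8 in refed mice, where 40.5% and 55.8% had none. Slc2a9 also passed in fasted mice without CCK+ fasted mouse B (adjusted p = 0.0123) and among genes with a mean of at least 10 (0.0389), of a range up to 0.269, and Slc5a4b passed in refed mice without CCK- refed mouse C (0.0283), of a range up to 0.96. The count in fasted mice fell to 4 without CCK+ fasted mouse A, where Slc5a4a, Slc5a9 and Slc2a7 were lost, and to 5 without CCK- fasted mouse A, where Slc5a9 and Slc2a7 were. Slc5a9 kept its call in fasted mice only without CCK- fasted mouse B, CCK- refed mouse E or CCK+ fasted mouse F. In refed mice the count fell to 4 without CCK+ refed mouse D, where Slc5a9, Slc2a7 and Slc2a9 were lost. Slc5a9 was also lost there without CCK- refed mouse C or D or CCK+ refed mouse C or E, and Slc2a9 without CCK- refed mouse C or D or CCK+ refed mouse E. Over all alternatives the adjusted p of Slc5a9 reached 0.257 in fasted and 0.271 in refed mice.

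**Figure D2:**
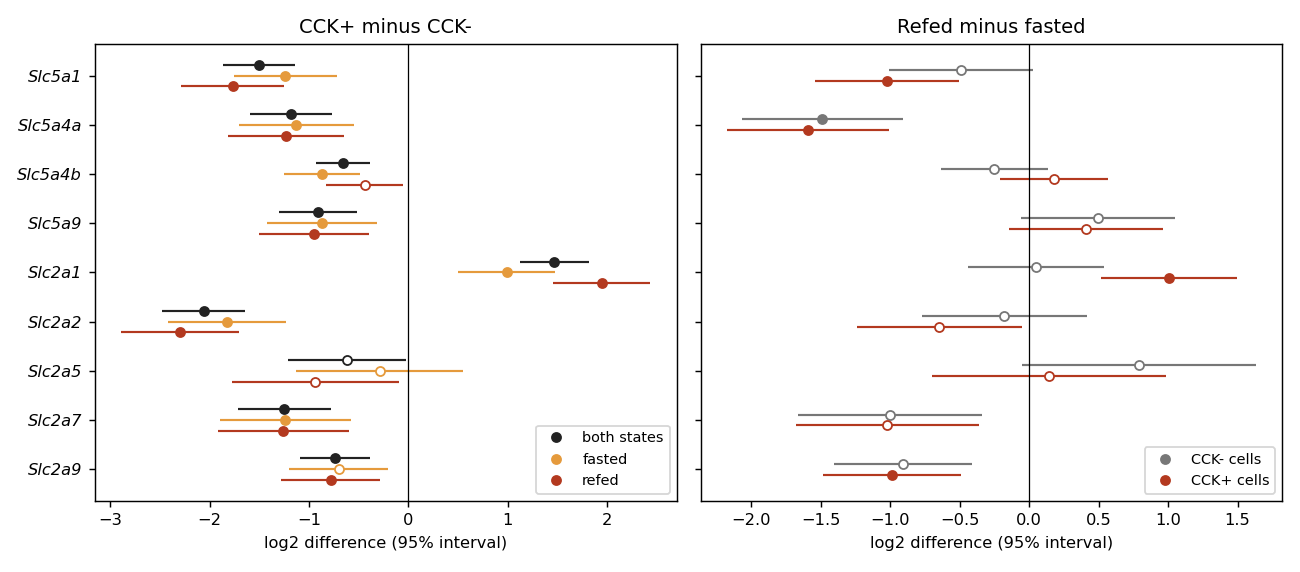
Log2 differences of the 9 sugar transporters with 95% intervals from the limma fit, CCK+ minus CCK- on the left and refed minus fasted on the right. Filled points passed an adjusted p under 0.05 and open points did not. Slc2a1 alone lies right of 0 on the left, and Slc5a4a is furthest left of 0 in both cell types on the right.

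The next comparison asked how the transporters change when fasted mice are refed. In CCK+ cells, 3 of the 9 genes fell (Slc5a1, Slc5a4a and Slc2a9) and Slc2a1 rose, where 2.55% of all genes passed, 1.31% as higher and 1.23% as lower after refeeding. In CCK- cells Slc5a4a alone fell, where again 1.23% of all genes passed, 0.526% as lower. The feeding states hold different mice, so these differences are between mice. Markers of other cells also differed between the states. The summed level of the 10 EEC markers in CCK+ libraries was 81508.1 to 170215.2 when fasted and 211685.3 to 269357.2 when refed, without overlap, although none of the 10 passed alone. Most of this sum was Chgb, at 54337.7 to 123320.6 and 152468.4 to 211125.2. Insm1 did not overlap either (128.7 to 286.4 and 292.4 to 354.5). Cck (15182.6 to 25000.5 and 14837.3 to 32592.4) and Isl1 (130 to 354.3 and 148.6 to 214.4) did overlap. The 5 crypt genes summed to 1288.5 to 2601.5 and 2551.1 to 3509.3 in CCK+ libraries, and to 722.4 to 1146.9 and 1592 to 2172 in CCK- libraries. The proliferation gene Mki67 rose in both cell types (log2 differences 0.96 ± 0.22 and 1.07 ± 0.22, adjusted p = 0.0344 and 0.0321), and Top2a rose in CCK- cells. The part of these markers in the refeeding values below was not tested.

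Slc5a4a fell in CCK+ cells from a mean of 231.7 ± 68 (SD, n = 3) when fasted to 76.2 ± 22.3 when refed, by 1.59 ± 0.27 on the log2 scale (adjusted p = 0.00815). In CCK- cells it fell from 498 ± 86.6 to 177.8 ± 37.8, by 1.49 ± 0.27 (adjusted p = 0.0181). Fasted and refed libraries did not overlap in either cell type. Its neighbor Slc5a4b, with which it shares the 10-base run shown above, had log2 differences of 0.18 ± 0.18 in CCK+ (95% interval -0.21 to 0.56) and -0.25 ± 0.18 in CCK- cells (-0.64 to 0.14), and neither passed. The call of Slc5a4a in CCK+ cells was lost without CCK+ fasted mouse B (adjusted p = 0.0606), CCK+ refed mouse D (0.0705) or CCK+ refed mouse E (0.0636), with a range over all alternatives of 0.00755 to 0.0705, and the difference stayed between -1.80 and -1.37. In CCK- cells it was lost without CCK- fasted mouse B (0.111) or F (0.073), CCK- refed mouse C (0.0861), D (0.0833) or E (0.0611), CCK+ fasted mouse F (0.0514) or CCK+ refed mouse D (0.0652), of a range of 0.0131 to 0.111, with differences of -1.64 to -1.30.

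Slc5a1 fell in CCK+ cells by 1.02 ± 0.24 on the log2 scale (2.03-fold lower, adjusted p = 0.0391), from 16148.8 to 27120.3 when fasted to 8094.9 to 13907.8 when refed. In CCK- cells its levels did not overlap either, and the log2 difference of -0.49 ± 0.24 did not pass (adjusted p = 0.451). Slc2a9 fell in CCK+ cells by 0.99 ± 0.23 (adjusted p = 0.0383) and had a like log2 difference of -0.91 ± 0.23 in CCK- cells that did not pass (adjusted p = 0.0823). The call of Slc5a1 held only without CCK+ fasted mouse A or CCK+ refed mouse C and was lost without any other single library (adjusted p of up to 0.167). That of Slc2a9 held only without CCK+ fasted mouse F or CCK+ refed mouse C (up to 0.17). Over all alternatives these adjusted p began at 0.0218 and 0.0308. Per 1000 enterocyte counts, Slc5a1 stood at 54.4 ± 2.74 (SD, n = 3) in fasted and 41.5 ± 3.79 in refed CCK+ cells, and at 83.5 ± 8.29 and 64.8 ± 2.65 in CCK- cells, so that the refed values lay below the fasted ones in both. On the same scale Slc2a9 was at 0.629 to 0.913 in fasted and 0.574 to 0.657 in refed CCK+ cells, which overlapped. In CCK- cells it was at 0.671 to 0.983 and 0.437 to 0.571, without overlap. None of the 5 and 8 enterocyte genes passed in this comparison, with median log2 differences of -0.30 and -0.50 in CCK+ cells. In CCK+ libraries the 5 genes summed to 51043.1 to 82058.4 when fasted and 34836.1 to 66065.9 when refed. The 8 summed to 259432.6 to 421388.6 and 182029.5 to 261993.1.

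Slc2a1 rose in CCK+ cells from 102.8 to 138 when fasted to 222.1 to 274 when refed, by 1.00 ± 0.23 on the log2 scale (adjusted p = 0.0326). In CCK- cells it was at 54.31 to 75.95 and 52.88 to 73.36, with a log2 difference of 0.05 ± 0.23. The EEC sum, most of it Chgb, and the crypt sum were higher in the same refed CCK+ libraries (above), and the crypt sum also in the refed CCK- libraries. The difference between these feeding effects was 0.96 ± 0.32 (adjusted p = 0.706). It was the only 1 of the 9 genes with an unadjusted p under 0.05 in limma, and none passed the adjusted test of the difference, which 1 gene of the whole table did (0.00454%). The rise of Slc2a1 in CCK+ cells did not pass without CCK+ fasted mouse B (adjusted p = 0.104) or F (0.061) or without CCK+ refed mouse D (0.119) or E (0.103), of a range of 0.02 to 0.119.

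The other members did not pass in either cell type. Slc2a7 had log2 differences of -1.02 ± 0.31 in CCK+ (adjusted p = 0.102) and -1.0 ± 0.31 in CCK- cells (adjusted p = 0.156), and passed in CCK+ cells without CCK+ refed mouse C (-1.43, adjusted p = 0.0159, of a range of 0.0159 to 0.33). Slc2a2 had -0.65 ± 0.28 in CCK+ cells (adjusted p = 0.253). Slc2a5 had 0.79 ± 0.39 in CCK- cells (95% interval -0.05 to 1.63, adjusted p = 0.456) and 0.14 ± 0.39 in CCK+ cells, and Slc5a9 had 0.49 ± 0.26 and 0.41 ± 0.26. Fasted and refed groups did not overlap for 6 of the 9 genes in CCK+ cells, against 19.4% of all genes and 26.9% of those with a mean of at least 10, and for 5 in CCK- cells, against 16.2% and 23.2%. Without a mean-variance trend in the test, none of the 9 genes passed in either cell type.

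The genes around the transporters were counted from fixed lists. All 4 disaccharidases, the brush-border enzymes that free monosaccharides, were lower in CCK+ cells, with sucrase-isomaltase Sis (log2 difference -1.53 ± 0.18, adjusted p = 1.64e-05) and maltase-glucoamylase Mgam (-1.29 ± 0.20) the furthest. In CCK+ cells, 3 of the 4 fell on refeeding (Mgam by 1.22, Treh by 0.98 and Lct by 0.96 on the log2 scale). Of 9 other SLC5 genes 3 were lower in CCK+ cells and none higher: the monocarboxylate carrier Slc5a8 (-1.67 ± 0.32), the inositol carrier Slc5a11 (-1.19 ± 0.22) and another monocarboxylate carrier, Slc5a12 (-1.02 ± 0.19). Slc5a12, named after its values were seen, also fell on refeeding in CCK+ cells by 1.59 ± 0.27 (adjusted p = 0.00812). Of 7 other SLC2 genes 2 were higher, the glucose carrier Slc2a3 (1.62 ± 0.25) and the inositol carrier Slc2a13 (1.62 ± 0.59), at group means of 15.5 to 52.1 and 1.33 to 18.5 normalized counts.

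Downstream of uptake, 2 of 8 genes of hexose phosphorylation and fructose breakdown were higher in CCK+ cells and 3 were lower. Hexokinase Hk2 was higher by a log2 difference of 2.24 ± 0.26. The fructose enzyme Khk (-0.83 ± 0.20) and the hexokinase relative Hkdc1 (-0.70 ± 0.13) were lower. Of 8 sodium pump genes, 4 were higher, led by the pump regulator Fxyd3 (4.93 ± 0.21) and the subunit Atp1b3 (2.13 ± 0.26), and 2 were lower, among them the subunit Atp1b1 (-1.16 ± 0.15).

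Among 12 genes of factors that act on sugar transport, 1 was higher in CCK+ cells (Cdx2, 0.43 ± 0.14) and 5 were lower, led by the nuclear receptor Hnf4g (-1.20 ± 0.15) and the scaffold protein Pdzk1 (-0.95 ± 0.14). A pair of them moved on refeeding in both cell types. Mlxipl, which encodes the carbohydrate-responsive factor ChREBP, was at 2082.6, 2298.4 and 2254.1 in CCK+ cells of fasted mice and 3511.7, 3632.4 and 3994.6 in those of refed mice. It rose by 0.75 ± 0.13 on the log2 scale (adjusted p = 0.0107), and in CCK- cells, from 2333.2 to 2557 to 3959.4 to 4712.8, by 0.82 ± 0.13 (adjusted p = 0.00783). Hnf4g was at 2397.5, 3975.6 and 2919.2 in CCK+ cells of fasted mice and 1427.6, 935.5 and 974.4 in those of refed mice, and fell by 1.47 ± 0.21 (adjusted p = 0.00375). In CCK- cells it fell by 1.18 ± 0.21 (adjusted p = 0.0135). Both genes were named here after their values were seen.

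Of the sweet taste genes, which encode another route of sugar detection, those of the receptors were low. The channel gene Trpm5 was at 63.86 to 296.5 normalized counts per library. Tas1r2 was at 0 to 12.1 and Tas1r3 at 18.6 to 49.2 normalized counts per library, and neither passed in any comparison. Gnat3, the taste G protein, was lower in CCK+ cells (-1.44 ± 0.50) at 0 to 7.77 counts, and the phospholipase Plcb2 was higher (1.09 ± 0.36). Of the tuft cell markers, a cell type with the same taste pathway, 0 of 5 passed between CCK+ and CCK- cells, with a largest log2 difference of 0.73.

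Over the 12 libraries, 7497 genes with a mean of at least 100 normalized counts were ranked by their likeness to 4 transporters, as a description only, since group, mouse and library are shared by the points. Among the nearest to Slc5a1 were Mpp1 (Pearson r = 0.995), Ogdh (0.99), Cs (0.989) and Anpep (0.989), of which Anpep is a brush-border peptidase. Those nearest to Slc2a2 were Mme (0.996), B2m (0.996), Pls1 (0.993), Atp1b1 (0.993) and Sult1b1 (0.991). For Slc2a5 the first was Tkfc (0.925), the triose kinase of fructose breakdown, then Pgp (0.907), Mafg (0.907), Dbi (0.888) and Galnt10 (0.88). After removal of the 4 group means, Tkfc remained at 0.917. Tkfc was at 6569.5 in CCK- and 5506.5 in CCK+ cells of fasted mouse B against 2217 to 3387.8 in fasted mice A and F, the same mouse that was high for Slc2a5. Slc2a1 was most like Rbbp7 (0.98), Gpr55 (0.976), Myadm (0.974), Rpsa (0.974) and Smarca4 (0.971), which dropped to between 0.487 and 0.822 after removal of group means.

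In the droplet library, 9451 barcodes with more than 1000 genes and under 10% mitochondrial UMIs (unique molecular identifiers, each 1 counted transcript) were kept as cells, holding 66245278 UMIs. They were grouped in order by UMIs per 10000: 1246 Cck-high cells (13.2%; Cck at least 500), 2492 Tph1-high cells (26.4%; Tph1, the enzyme of serotonin synthesis in enterochromaffin cells, at least 10), 709 enterocyte cells (7.5%; Fabp1, Rbp2, Mttp, Alpi and Reg1 at least 100 in sum) and 5004 other cells (52.9%). Median depths were 6296, 3225.5, 8581 and 7235 UMIs. There was 1 library, so no comparison below carries a test, and intervals are 95% and cover counting error only. Barcodes with 1 to 100 UMIs, 410487 in number, served as free RNA. The classes are not pure: 268 Cck-high cells also passed the Tph1 limit, 11 Cck-high and 49 Tph1-high cells passed the enterocyte limit, and no doublet caller was run. Of the 709 enterocyte cells, 172 held at least 10 UMIs per 10000 of 5 tuft cell genes, with Fabp1 at 287 but Mttp at 0.547 and Alpi at 0.35, against 10.5 and 5 in the other 537. The class is therefore mixed, and its transporter levels are also given without these cells. These tuft-gene cells and the finer subsets below were defined after values had been seen.

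Slc5a1 was at 8.46 (8.23 to 8.7) UMIs per 10000 in enterocyte cells, against 0.453 (0.408 to 0.501) in Cck-high, 0.542 (0.496 to 0.591) in Tph1-high and 0.398 (0.379 to 0.417) in the remaining cells. Free RNA held 1.64 (1.47 to 1.83), above all classes but enterocytes. The 172 tuft-gene cells held 0.471 and the other 537 enterocyte cells 9.9. At least 1 UMI was found in 75.5% of enterocyte and 21.2% of Cck-high cells, and after thinning every cell to 2000 UMIs in 60.9% and 8.35%, with 7.39% of the remaining cells. The remaining cells were uneven in this share. After thinning it was 5.8% in the 3554 with goblet and 5.05% in the 535 with Paneth genes over the limits used. Both lay below the Cck-high share. It was 7.28% in cells with Ghrl, 11.8% in the 34 with Sst, 17.7% in the 130 with Gip and 16.5% in those without any of these. Cells with Gip held 0.977 (0.785 to 1.2) UMIs of Slc5a1 per 10000.

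Slc2a2 followed the same order, with 1.74 (1.64 to 1.85) UMIs per 10000 in enterocyte cells (2.05 in the 537 without tuft genes), 0.0425 (0.0296 to 0.0591) in Cck-high, 0.0594 (0.045 to 0.077) in Tph1-high and 0.0215 (0.0173 to 0.0263) in the remaining cells, and 0.125 in free RNA. Slc5a4a and Slc2a7 were barely detected. Slc5a4a had 2 UMIs in Cck-high, 8 in Tph1-high, 29 in enterocyte and 8 in the remaining cells, and Slc2a7 had 1, 4, 25 and 5.

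The fructose carrier Slc2a5 was at 0.524 (0.468 to 0.585) in enterocyte cells (0.616 in the 537) and 0.117 (0.0945 to 0.142) in Cck-high cells, the second highest class. Tph1-high cells held 0.0323 (0.022 to 0.0459), the remaining cells 0.0299 (0.025 to 0.0356) and free RNA 0.0697 (0.0381 to 0.117). The share of cells with a UMI was 6.9% in Cck-high against 2.46% in the remaining cells, and 2.09% against 0.5% after thinning, so the order was the same at equal depth. The urate carrier Slc2a9 was at 0.121 (0.0952 to 0.153) in enterocyte, 0.0607 (0.0451 to 0.0801) in Cck-high, 0.0657 (0.0505 to 0.084) in Tph1-high and 0.0215 (0.0173 to 0.0263) in the remaining cells, with overlapping intervals for the Cck-high and Tph1-high classes.

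Slc5a4b and Slc5a9 were highest in Tph1-high cells. Slc5a4b was at 0.647 (0.597 to 0.7) UMIs per 10000 there, against 0.105 (0.0805 to 0.134) in enterocyte, 0.051 (0.0368 to 0.069) in Cck-high and 0.0217 (0.0175 to 0.0266) in the remaining cells, and 0.0946 (0.057 to 0.148) in free RNA. It was detected in 19.6% of Tph1-high, 7.48% of enterocyte, 3.05% of Cck-high and 1.74% of the remaining cells, although Tph1-high cells had the lowest depth, and in 12.3%, 2.54%, 0.963% and 0.46% after thinning. Slc5a9 was at 0.357 (0.321 to 0.397) in Tph1-high, 0.143 (0.114 to 0.177) in enterocyte, 0.0668 (0.0503 to 0.087) in Cck-high and 0.0606 (0.0534 to 0.0685) in the remaining cells. The last pair of classes do not differ beyond counting error. Its thinned shares were 6.24%, 2.82%, 1.28% and 1.42%.

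Slc2a1 had its highest class level among the remaining cells, at 0.339 (0.322 to 0.357), then Tph1-high at 0.26 (0.228 to 0.294), enterocyte at 0.191 (0.158 to 0.23) and Cck-high at 0.109 (0.0879 to 0.134) cells. Free RNA held 0.374 (0.294 to 0.468), so no class level lay clearly above it. The enterocyte level came largely from the tuft-gene cells (0.569, against 0.124 in the other 537), and among the remaining cells it was highest in the 3554 with goblet genes, at 0.467. The bulk libraries, in which Slc2a1 was higher in CCK+ than in CCK- cells, hold a different sort and different mice, and the values are not on one scale. Counting classes whose intervals did not overlap, 0 of the 9 genes were higher in Cck-high than in enterocyte cells. In Tph1-high cells 2 (Slc5a4b and Slc5a9) were higher than in enterocyte cells, joined by Slc2a1 when the tuft-gene cells were left out. The share of all droplet genes that were higher in these ways was not computed, so these counts have no background beside them.

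**Figure D3:**
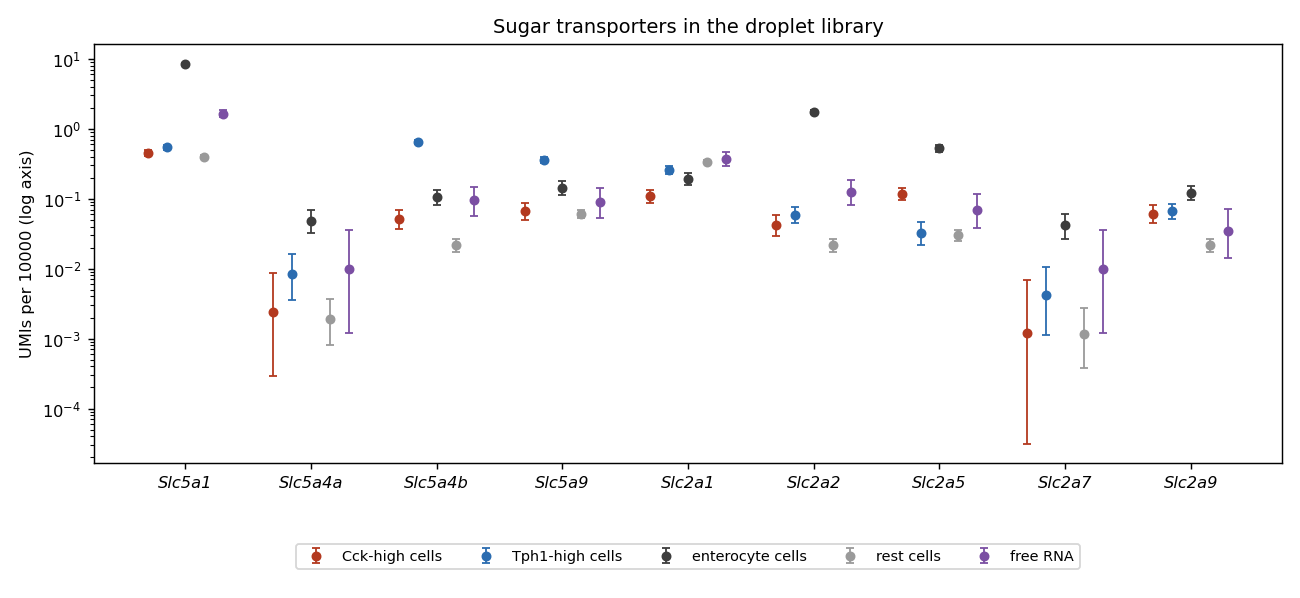
UMIs per 10000 of the 9 sugar transporters in the 4 droplet classes and in free RNA, on a log axis, with 95% Poisson intervals. Enterocyte cells are highest for Slc5a1 and Slc2a2, Tph1-high cells for Slc5a4b and Slc5a9, and Cck-high cells are second for Slc2a5.

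Since enterocyte RNA can enter any droplet, the UMIs of each gene in Cck-high cells were set against those that such RNA would give. The 5 enterocyte genes summed to 11.4 UMIs per 10000 in Cck-high, 24.6 in Tph1-high, 417 in enterocyte and 10.8 in the remaining cells, and 39.2 in free RNA. Multiplying a class's enterocyte UMIs by the transporter UMIs per enterocyte UMI in enterocyte cells gives the allowance. These 5 genes also define the enterocyte class, so their UMIs there are high by selection, which can lower the allowance. The part of this selection in the ratios was not tested. The 8 other enterocyte genes were not used to define the class. Slc5a1 had 373 UMIs in Cck-high cells against an allowance of 190.1, a ratio of 1.96 (1.76 to 2.18). Without the tuft-gene cells in the enterocyte class the ratio was 1.77 (1.58 to 1.96). With the 8 other enterocyte genes as gauge the ratio was 0.68 (0.61 to 0.755), and with the composition of free RNA it was 0.95 (0.817 to 1.11). The UMIs of Slc5a1 in Cck-high cells as a whole thus lay above, below or at the allowance depending on the gauge. By subset, read with the 5 genes only, the ratio was 3.01 (2.51 to 3.58) in Cck-high cells with Gcg or Pyy. It was 1.32 (0.955 to 1.78) in those with Tph1 and 1.75 (1.51 to 2.02) in the other Cck-high cells. Slc2a2 was not above the allowance with any gauge, at 0.894 (0.619 to 1.25), 0.31 and 1.18.

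For Slc2a5 the 96 UMIs in Cck-high cells were 8.16 (6.42 to 10.3) times the allowance, 2.83 (2.22 to 3.56) times with the 8 other genes and 5.77 (3.27 to 10.9) times with free RNA. In Tph1-high cells, by contrast, its 31 UMIs were 1.04 (0.698 to 1.51) times the allowance. Only 1 of the 96 UMIs came from the 11 Cck-high cells over the enterocyte limit, whereas 55 of the 373 UMIs of Slc5a1 did. Slc2a9, Slc5a9 and Slc5a4b were above the allowance in Cck-high cells with every gauge as well, at 18.3, 17.1 and 17.8 times with enterocyte cells and 6.01 (2.71 to 15.7), 2.57 (1.49 to 4.65) and 1.86 (1.06 to 3.38) times with free RNA. Slc2a1 was at 21 times with enterocyte cells but 1.01 (0.734 to 1.39) times with free RNA. In all, 6 of the 9 genes were over the allowance in Cck-high cells with the 5 genes, 5 with the 8 other genes and 4 with free RNA. The share of all droplet genes over the allowance was not computed, so these counts cannot be read as particular to sugar transporters.

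Tph1-high cells showed the largest excess. The 621 UMIs of Slc5a4b were 80.6 to 138 times the allowance (95% interval), 34.2 (26.4 to 45.1) times with the 8 other genes and 10.9 (6.92 to 18.2) times with free RNA. Slc5a9 stood at 42.3, 13.8 and 6.35 (3.96 to 10.8) times. Slc5a1 was at 1.08 (0.989 to 1.19), 0.355 and 0.525 times with the 5 genes, the 8 other genes and free RNA. Without the tuft-gene cells in the enterocyte class it was at 0.975 (0.889 to 1.07) times with the 5 genes. The 8 genes are not particular to enterocytes here. Apoc3 was at 5.67 UMIs per 10000 in Tph1-high and 5.56 in enterocyte cells. Apoa1 was at 14.5 in Tph1-high cells, with 13.1 in free RNA and 53.7 in enterocyte cells. Their part in the lower ratios of this gauge was not tested. With the 5 genes Slc5a1 passed the allowance under a lower limit on genes per cell, among barcodes that Cell Ranger 2 would call cells (over 3892 UMIs), and when cells over the enterocyte limit were left out. By subset it was at 1.71 (1.28 to 2.25) times in Tph1-high cells with Sct and 1.38 (1.23 to 1.55) times in those without Sct, Tac1 or Afp, against 0.795 (0.663 to 0.946) with Afp and 0.519 (0.359 to 0.726) with Tac1. In all, 5 of the 9 genes were over the allowance in Tph1-high cells (Slc5a4a, Slc5a4b, Slc5a9, Slc2a1 and Slc2a9), 4 with the 8 other genes, where Slc5a4a was lost, and 3 with free RNA (Slc5a4b, Slc5a9 and Slc2a9). Slc5a4a was also lost under a higher limit on genes per cell and over 3892 UMIs. The 8 UMIs of Slc5a4a were 2.93 (1.16 to 6.56) times the allowance and 1.33 (0.266 to 12.9) times with free RNA. As for Cck-high cells, the share of all droplet genes over the allowance was not computed.

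**Figure D4:**
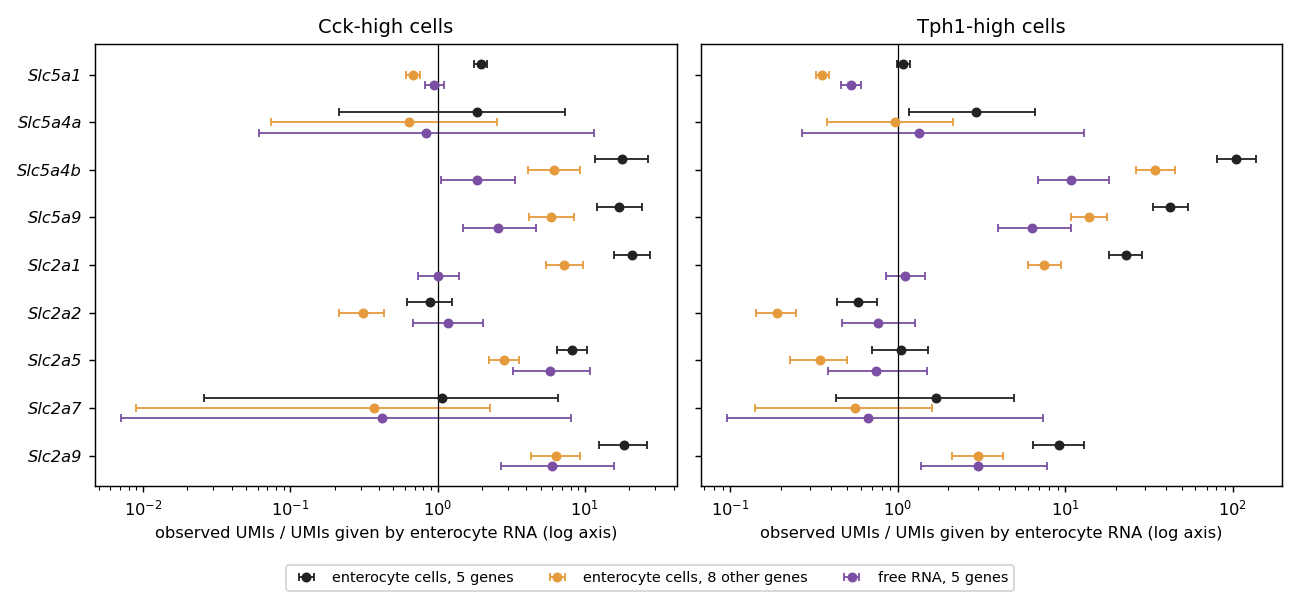
Ratio of observed UMIs to the UMIs that enterocyte RNA would give, in Cck-high (left) and Tph1-high cells (right), on a log axis with 95% intervals. Colors are the 3 gauges, and the vertical line is a ratio of 1. Slc5a1 lies on both sides of the line in Cck-high cells, Slc2a5 lies right of it with every gauge in Cck-high cells, and Slc5a4b and Slc5a9 lie furthest right in Tph1-high cells.

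Within the classes the levels were uneven. Cck-high cells that also passed the Tph1 limit (268) held 31 of the 42 Slc5a4b UMIs of their class, 0.173 (0.118 to 0.246) per 10000, against 0.0217 in the 380 with Gcg or Pyy, the genes of GLP-1 and peptide YY, and 0.0145 in the other 598. The Slc5a4b signal of Cck-high cells thus lay mostly in cells with serotonin-synthesis transcripts. Slc2a5 had another order, with 0.182 (0.131 to 0.246) in cells with Gcg or Pyy, 0.104 (0.0752 to 0.14) in the other Cck-high cells and 0.0615 (0.0307 to 0.11) in those with Tph1. Outside the class, the 130 cells with Gip, the gene of the incretin of K cells, held 0.187 (0.109 to 0.299) of Slc2a5.

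Tph1-high cells were split by Tac1 (substance P), Sct (secretin) and Afp (alpha-fetoprotein). Slc5a4b was at 1.28 (1.14 to 1.44) UMIs per 10000 in the 589 cells with Afp, where 37.5% held a UMI, 0.753 (0.614 to 0.913) in the 357 with Tac1, 0.432 (0.374 to 0.496) in the other 1205 and 0.191 (0.123 to 0.281) in the 341 with Sct. Slc5a9 peaked elsewhere, at 1.16 (0.988 to 1.36) with Tac1, where 33.9% of cells held a UMI, against 0.495 (0.408 to 0.595) with Afp, 0.119 in the other cells and 0.122 with Sct. The 2 genes therefore had different highest subsets, beyond counting error, and both were low in Sct cells. Slc2a5 had 0 UMIs in the 341 Sct cells, which allows a share of cells with a UMI of up to 0.88% (3 counts of 341). Among barcodes over 3892 UMIs, the Tph1-high level of Slc5a4b was 0.462, so that shallower cells held more of it per UMI.

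**Figure D5:**
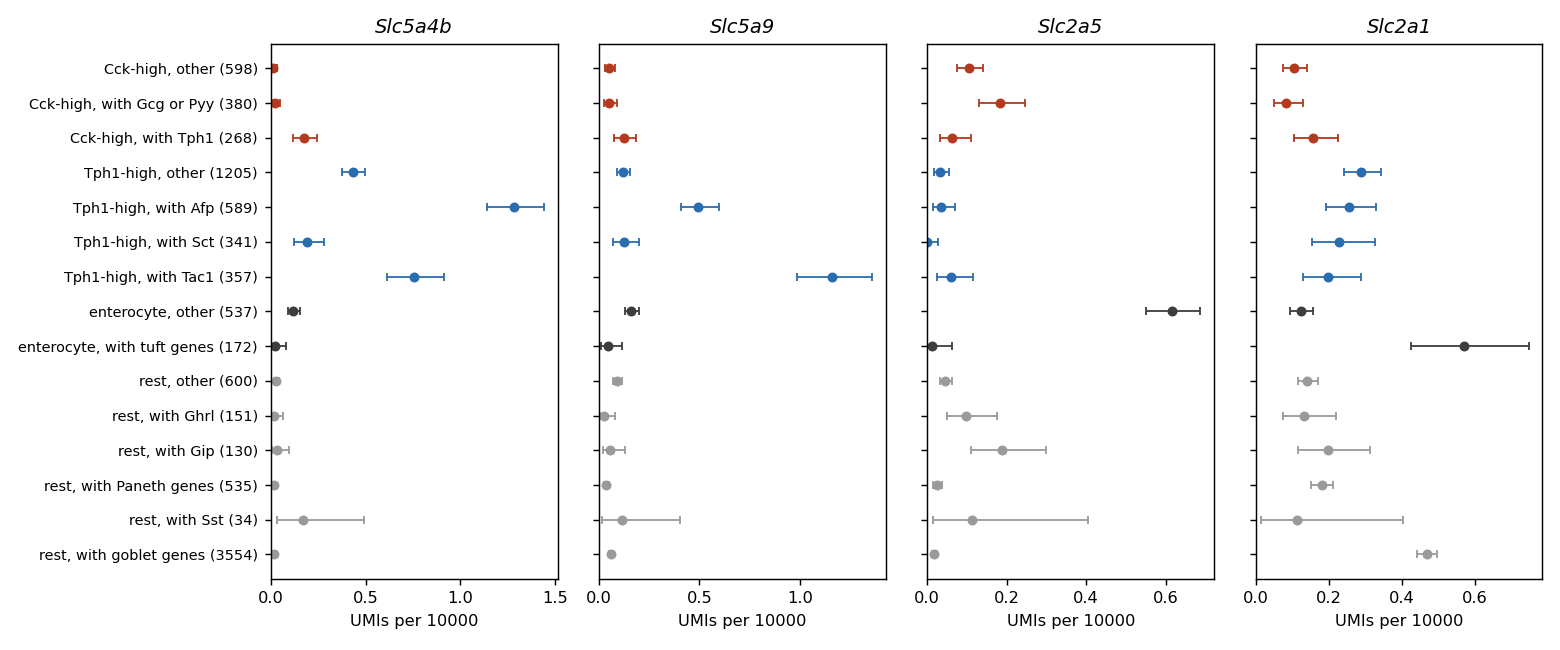
UMIs per 10000 of Slc5a4b, Slc5a9, Slc2a5 and Slc2a1 in subsets of the droplet classes, with 95% Poisson intervals, linear axes and the number of cells in parentheses. Slc5a4b is highest in Tph1-high cells with Afp, Slc5a9 in those with Tac1, Slc2a5 in enterocytes without tuft genes, and Slc2a1 in enterocyte-class cells with tuft genes and in cells with goblet genes.

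Genes of sugar handling that are no transporters gave other patterns in the droplet classes. Sis was at 7.99 (7.8 to 8.19) UMIs per 10000 in Cck-high and 10.2 (9.95 to 10.5) in enterocyte cells, with 2.01 in free RNA, whereas the other disaccharidases Mgam (0.391 against 5.17), Lct (0.0292 against 1.22) and Treh (0.0316 against 0.842) were far lower in Cck-high than in enterocyte cells. Khk (0.278 against 5.76) and Tkfc (0.0875 against 1.45) were low in Cck-high against enterocyte cells, so the fructose carrier and the enzymes of fructose breakdown had different ratios between these classes. Tas1r2 had 0 UMIs in Cck-high, Tph1-high and enterocyte cells, which allows shares of cells with a UMI of up to 0.241%, 0.12% and 0.423%, and Tas1r3 had 2, 3 and 3.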

How the data were processed

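The bulk table was deposited as signal values: according to the authors, reads were trimmed with Trim Galore 0.6.7, counted with Salmon 1.6.0 against the Ensembl cDNA transcripts of GRCm39, summed per gene with tximeta and divided by DESeq2 normalization factors. These normalized counts are not whole and their depth in reads is unknown. Titles in the public record name CCK+ cells for all 4 bulk groups, but by their cell-type labels and the table there are 2 CCK+ and 2 CCK- groups, which were used. Replicate letters were taken to identify mice, which no label states. Over genes, libraries of the same letter correlated after removal of group means at 0.0773 to 0.124 (6 pairs), and libraries of different letters at -0.0826 to -0.0184.

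All 22042 genes were tested with limma 3.58.1 in R 4.3.3 after adding a pseudocount of 1 and taking log2. The model had 4 group means and a mean-variance trend, and p-values were adjusted over all genes by Benjamini-Hochberg. A fold change on this scale understates changes of low genes. All 9 genes had a mean of at least 10 normalized counts, and no filter on low values was used. The code was tested on simulated data. No value is a comparison of the authors. P-values measure the spread between mice of 1 sort each.

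The droplet counts were deposited as UMI counts of all barcodes, 108489965 UMIs in 475960 barcodes, made by the authors with Cell Ranger 2.0.1 on mm10 without normalization. Cells were filtered and grouped in order as given in the report, with Python 3.11.15, numpy 2.4.6, scipy 1.17.1 and pandas 2.3.3. Levels are summed UMIs per 10000 with exact Poisson intervals, and shares have exact binomial intervals. A total of 327 cells passed the limits of more than 1 class and went to the first. For thinning, 2000 UMIs were drawn from each cell, with 58 shallower Tph1-high cells left out. Subsets required at least 10 UMIs per 10000 of Tac1 or Afp, 20 of Gcg and Pyy, 500 of Gip, Ghrl, Sst or Paneth genes, and 1000 of Sct or goblet genes.

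The 9 genes, the gene lists and the tests were chosen with earlier results of these data known. Named beside the 9 were the 2 genes of each list with the largest difference among those called and the 5 genes most like 4 of the transporters. Annotation was taken from GRCm38 and RefSeq. Protein sequences were not used here. Some genes of the lists are counted but not reported here by name. Alternatives were other pseudocounts (0.5 and 10), a filter on low values, other scalings, no trend, the mouse as a block, each library left out, and other cell limits and gauges.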

Additional observations from a re-analysis of the deposited data

How the results depend on the processing

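Of the 9 sugar transporters, no called difference changed its direction under any alternative. Pseudocounts of 0.5 and 10, a mean of at least 10 normalized counts and median-of-ratios scaling left each count of called transporters within 1 of the reported one. Scaling every library to the same sum lowered the count between CCK+ and CCK- cells from 8 to 5 (Slc5a1, Slc5a4a, Slc2a1, Slc2a2 and Slc2a7), from 7 to 4 in fasted mice and from 7 to 4 in refed mice. It moved the median log2 difference of all genes to 0.35, 0.31 and 0.42, and on refeeding in CCK+ cells to 0.20, and raised the share of higher calls from 58.2 to 84.1%, 61.3 to 85.6%, 59.2 to 86.5% and, on refeeding in CCK+ cells, 51.5 to 77.4%. Without a mean-variance trend the refeeding counts fell from 4 and 1 to 0 and 0, and the calls over all genes from 561 to 119 in CCK+ and from 272 to 66 in CCK- cells. The share of higher calls was then 65.5% on refeeding in CCK+ cells. The cause was not tested.

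With the mouse as a fixed replicate block, 9 transporters passed between CCK+ and CCK- cells, 8 in fasted and 8 in refed mice and 0 for the interaction. As a random block (correlation 0.0962) it left the refeeding counts at 4 and 1. The pairing changed no other call than those of Slc2a5 and Slc2a9 given above.

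Leaving out 1 library gave 8 to 9 called transporters over both states, 4 to 7 in fasted and 4 to 7 in refed mice, 0 to 5 on refeeding in CCK+ and 0 to 1 in CCK- cells, and 0 for the interaction. The refeeding count in CCK+ cells was 0 without CCK+ fasted mouse B, CCK+ refed mouse D or CCK+ refed mouse E. Calls over all genes then ranged from 103 to 876 in CCK+ and 79 to 268 in CCK- cells on refeeding, and from 1 to 6 for the interaction. In the droplet data, the count over the enterocyte allowance in Tph1-high cells was 5 and moved to 3 with free RNA as the source (the cause was not tested). This Tph1-high count, the Cell Ranger 2 limit and the removal of cells with tuft genes were added after seeing the data. Of 1026 values of single transporters in the bulk tests, 944 stayed on their side of the threshold, 74 lost and 8 gained a call, and of 360 droplet levels 42 left their main interval.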
